A study of Mus musculus with 20 samples.

Results

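The genes examined here encode the amyloid precursor protein family (App, Aplp1 and Aplp2), enzymes that cut it (Adam10, Bace1, and the gamma-secretase subunits Psen2 and Ncstn) and tau (Mapt). They were taken as a list of 8 named genes and found in the deposited counts by their Ensembl identifiers, matched to mouse symbols. They are 8 of the 49671 genes in the count tables, and all 8 were among the 18427 genes with enough counts to be tested. No synuclein is among the 8, and Sncb and Sncg are given with the pathway genes further on.

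RNA-seq counts came from hippocampi of male wild-type adult mice, 10 to 12 weeks old, with 1 library per mouse and 5 mice in each of 4 groups. CONTROL mice received isotype-matched control antibodies intraperitoneally. CONTROL + ICI mice, without tumours, received immune checkpoint inhibitors, antibodies that block brakes on T cells: anti-CTLA-4 at 1 mg per dose 3 times a week and anti-PD-1 at 200 µg per dose 2 times a week. MELANOMA mice carried tumours of the syngeneic mouse melanoma line D4M-3A.UV2, injected into the skin on both sides at 500000 cells per injection and left 1 week to engraft, and then received the isotype antibodies. MELANOMA + ICI mice carried the same tumours and received both inhibitors, for 3 weeks as the labels state for this group. Tissue was collected 72 hours from the last injection in all groups. Tumour size is not among the values used here, and D4M-3A.UV2 is a single line, so the tumour groups stand for that line.

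In the brain, the amyloid precursor protein and its relatives are membrane proteins of neurons and glia. Cutting by an alpha-secretase releases a soluble outer part, whereas cutting by a beta-secretase followed by gamma-secretase releases amyloid-beta peptide. Tau binds the microtubules of axons, and aggregates of tau together with deposits of amyloid-beta define Alzheimer's disease pathology.

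The 20 libraries held 21990624 to 25735149 counts each. Levels are given as CPM, that is, counts as a rate per 1000000 counts of the library after scaling by the trimmed mean of M-values (TMM), and, for comparisons between genes, as RPKM, which is CPM per kilobase of the gene's summed exons. A pair of libraries stood apart from the other 18 on the first principal component of all tested genes, which held 23.4% of the variance: CONTROL replicate 4 at -71.4 and MELANOMA + ICI replicate 1 at -61.5, with the others between -27.5 and 40.9. They belong to different groups. For the 8 genes, values without both are given beside the group differences, spreads and correlations that they moved most. The labels used here name no batch. In 13 lists of cell type and region markers, no marker was at 0 counts in any library, and both the neuron list and the dentate gyrus, CA1 and CA3 lists of the hippocampus were detected throughout. The dentate gyrus list varied widely all the same: its summed level ran from 90.1 to 634 CPM in CONTROL, 122 to 651 in CONTROL + ICI, 75.2 to 354 in MELANOMA and 40.8 to 182 in MELANOMA + ICI. So did markers of neighbouring tissue: the summed level of the choroid plexus list ran from 21.02 to 6497 CPM. In bulk tissue, fewer cells of a type and less RNA per cell cannot be told apart.

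The precursor family supplied the most abundant transcripts of the set. App averaged 646 ± 51.2 RPKM (SD, n = 20), Aplp1 435 ± 37.6 and Aplp2 101.6 ± 5.52, so that App made up 54.6%, Aplp1 36.8% and Aplp2 8.60% of the family's summed RPKM. App, the gene mutated or duplicated in some inherited forms of Alzheimer's disease, had a higher CPM than 99.9% of tested genes. The deposited gene models place App at chr16:84954440-85173707, Aplp1 at chr7:30434982-30445535 and Aplp2 at chr9:31149557-31211815, all on the minus strand. The genome build is not given in the sources used here, but 7 of the 8 models have the same start and end as in the GRCm38 annotation GENCODE M21; the App model is the exception, with its end at 85173707 in place of 85173766 and its start at 84954440 in place of 84949685.

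The promoters of the 3 relatives are shown because their transcripts differ in level in every library while sharing ancestry. RefSeq promoter windows of build GRCm38.p6 (250 bases before to 50 after a start site) were found for 6 of the 8 genes; Bace1 and Mapt had no entry. Printed 5′ to 3′ on the gene's own strand, with matches to the GC-box letters GGGCGG or to CCAAT on either strand in capitals, they lie at chr16:85173658-85173957 on the minus strand (App), chr7:30445533-30445832 on the minus strand (Aplp1) and chr9:31211799-31212098 on the minus strand (Aplp2).
App: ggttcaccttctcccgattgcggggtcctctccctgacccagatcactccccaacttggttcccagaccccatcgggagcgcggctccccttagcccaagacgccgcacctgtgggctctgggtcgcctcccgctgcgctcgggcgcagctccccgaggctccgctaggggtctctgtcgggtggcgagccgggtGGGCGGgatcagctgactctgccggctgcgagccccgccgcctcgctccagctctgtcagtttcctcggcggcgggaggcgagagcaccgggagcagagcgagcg
Aplp1: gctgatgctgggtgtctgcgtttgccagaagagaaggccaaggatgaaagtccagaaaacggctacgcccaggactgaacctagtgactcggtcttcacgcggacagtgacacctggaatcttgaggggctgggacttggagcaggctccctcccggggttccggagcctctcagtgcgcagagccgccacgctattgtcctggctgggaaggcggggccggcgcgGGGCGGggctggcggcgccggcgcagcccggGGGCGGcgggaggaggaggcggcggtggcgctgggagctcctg
Aplp2: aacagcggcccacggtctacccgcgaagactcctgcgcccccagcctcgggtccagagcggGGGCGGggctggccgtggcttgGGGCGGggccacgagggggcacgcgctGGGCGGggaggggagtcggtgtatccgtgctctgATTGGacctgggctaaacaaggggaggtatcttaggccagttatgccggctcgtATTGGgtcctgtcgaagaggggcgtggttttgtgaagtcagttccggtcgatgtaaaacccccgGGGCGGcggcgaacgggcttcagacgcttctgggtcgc

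The App window held 1 GGGCGG match, which began 55 bases before the start site. The Aplp1 window held 2, beginning 24 bases before and at base 8 after the start, and the Aplp2 window held 4 together with 2 CCAAT matches. None of the 3 held TATAAA. For comparison, GGGCGG occurred in 35.7%, CCAAT in 37.4% and TATAAA in 13.6% of all 32851 windows of the same length. The 3 windows were rich in G and C (71.0% for App, 68.7% for Aplp1 and 67.0% for Aplp2, against a median of 52.7% over all windows). Their observed-to-expected CpG ratios were 0.796, 0.767 and 0.899 against a median of 0.384. Their start sites lie 0 (App), 47 (Aplp1) and 33 (Aplp2) bases from the start of the deposited gene models. A match of letters is a description of the window and not a binding site.

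The level of App was lowest in the 2 libraries that stood apart. In order of replicate, its CPM was 1907, 2045, 2066, 1549.9 and 1906 in CONTROL and 2204, 2053, 2076, 2073 and 2026 in CONTROL + ICI. It was 2030.5, 2169, 1934, 2290.3 and 2078 in MELANOMA and 1750.2, 2074, 1978, 2107 and 2093 in MELANOMA + ICI. The lowest values were those of CONTROL replicate 4 and MELANOMA + ICI replicate 1, below every one of the other 18 libraries (1906.5 to 2290.3). All 4 groups overlapped. App was higher by 0.14 (SE 0.085, edgeR adjusted p = 0.766) on the log2 scale in CONTROL + ICI than in CONTROL, and by 0.15 (SE 0.085, adjusted p = 0.877) in MELANOMA than in CONTROL. Neither passed the threshold of an adjusted p under 0.05 in edgeR's quasi-likelihood test, and both share the same CONTROL mice. Without the 2 libraries apart these differences were 0.075 and 0.084.

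Aplp1, a relative found mainly in neurons, had values of 1235, 1337, 1304, 1693 and 1271 CPM in CONTROL and 1361, 1221, 1426, 1318 and 1154 in CONTROL + ICI. The tumour-bearing groups had 1312, 1313, 1297, 1376 and 1269.8 in MELANOMA and 1423, 1244, 1241, 1197 and 1277 in MELANOMA + ICI. CONTROL replicate 4 had the highest level of all 20 libraries, while the MELANOMA mice lay within a narrow band inside the range of each other group. The group differences ran from -0.10 to 0.037 on the log2 scale, and none had an unadjusted p under 0.05 in edgeR. With the 2 libraries apart left out, 3 of them changed sign: from -0.078 to 0.010 in CONTROL + ICI against CONTROL, from -0.059 to 0.030 in MELANOMA against CONTROL and from 0.037 to -0.094 in the interaction defined below for Bace1.

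Aplp2, the most widely expressed of the 3 relatives across tissues, was nearly flat. Its CPM was 595, 597, 586, 501 and 609 in CONTROL and 599, 592, 585, 582 and 600.4 in CONTROL + ICI. It was 591, 586, 582, 605 and 633 in MELANOMA and 585, 598, 665, 655 and 597 in MELANOMA + ICI. CONTROL replicate 4 was the lowest library and MELANOMA + ICI replicates 3 and 4 the highest 2. The 5 CONTROL + ICI mice lay between 582 and 600.4 CPM, with a coefficient of variation of 1.42%. Over all 20 libraries the SD of Aplp2 on the log2 scale was smaller than that of all but 2.32% of the 10420 genes above 10 CPM, and of all but 0.729% over the 18 libraries without the 2 apart. The largest group difference was 0.10 (SE 0.067, edgeR adjusted p = 1.00), for MELANOMA + ICI against CONTROL. It was 0.075 without the 2 libraries apart.

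**Figure D1:**
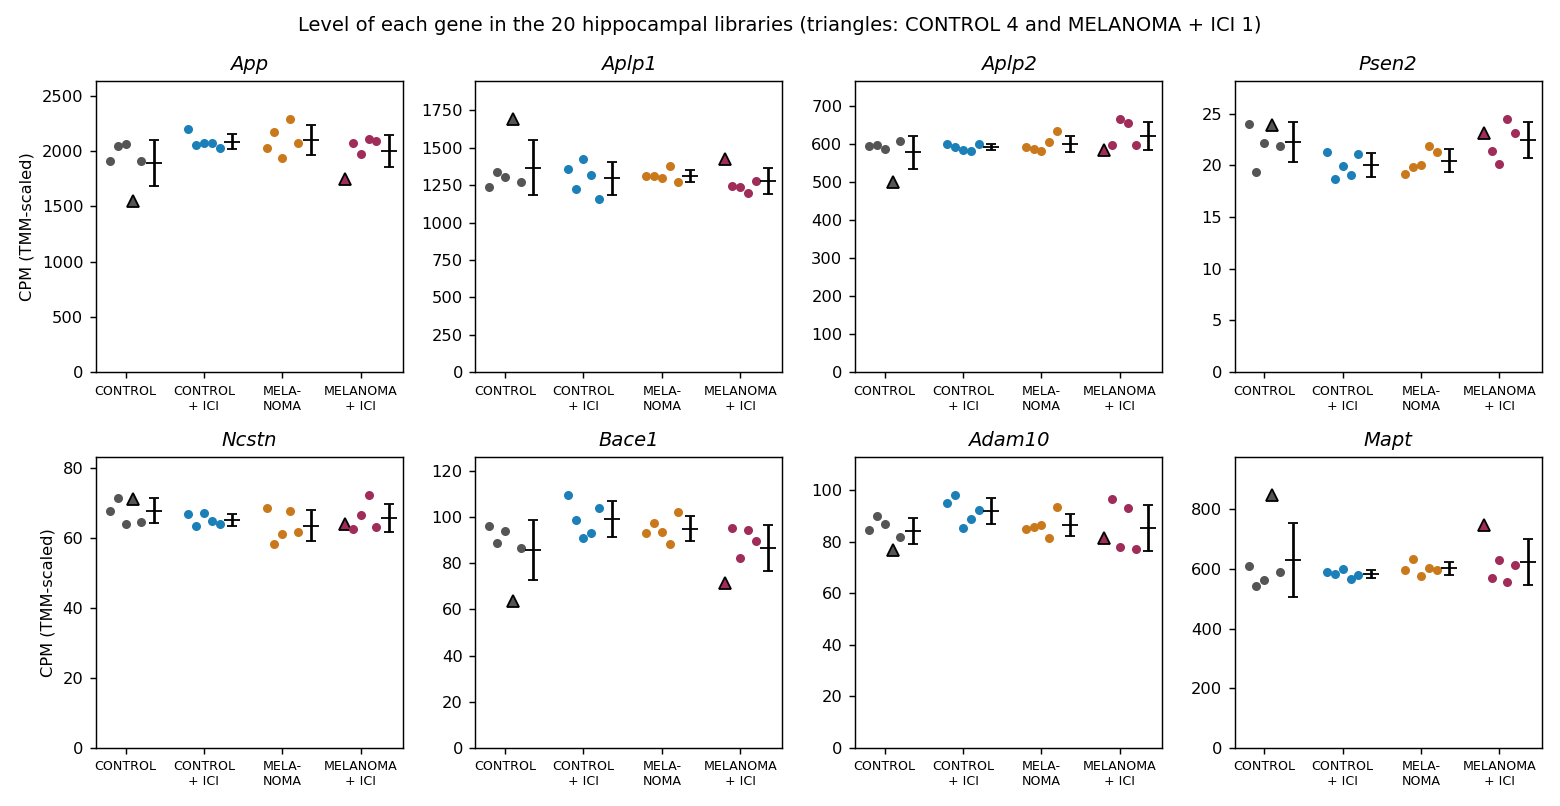
CPM of each gene (vertical axis, from 0) in each of the 20 libraries by group; circles and triangles are single mice, bars show mean ± SD (n = 5), and triangles mark CONTROL replicate 4 and MELANOMA + ICI replicate 1. The triangles are the 2 lowest points for App and Bace1 and the 2 highest for Mapt, and for every gene the groups overlap.

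Relative to Aplp2, App was 6.15 ± 0.353 times as high in RPKM in CONTROL (SD, n = 5), 6.62 ± 0.213 in CONTROL + ICI, 6.59 ± 0.429 in MELANOMA and 6.07 ± 0.477 in MELANOMA + ICI. The log2 ratio differed by 0.11 between CONTROL + ICI and CONTROL (2-sided exact permutation p = 0.0556, adjusted p = 0.254 over 10 tests of 2 ratios). Between MELANOMA + ICI and CONTROL + ICI it differed by -0.13 (exact permutation p = 0.0635, adjusted p = 0.254). The smallest p that 5 mice against 5 can give is 0.00794. Neither difference passed after adjustment, and both kept their sign without the 2 libraries apart (0.088 and -0.10).

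The secretase transcripts were far less abundant. Adam10, the main alpha-secretase of neurons, averaged 17.7 ± 1.31 RPKM and Bace1, the beta-secretase, 14.4 ± 1.64 RPKM. Adam10 lies at chr9:70678997-70780229 on the plus strand, and its RefSeq window is printed because its level moved with that of Bace1 across libraries, as described further on. The window, chr9:70678732-70679031 on the plus strand in GRCm38.p6, has its start site 15 bases from the deposited gene start. Capitals mark matches to the GC-box letters GGGCGG, to the letters CCAAT or to the E-box letters CACGTG, on either strand.
Adam10: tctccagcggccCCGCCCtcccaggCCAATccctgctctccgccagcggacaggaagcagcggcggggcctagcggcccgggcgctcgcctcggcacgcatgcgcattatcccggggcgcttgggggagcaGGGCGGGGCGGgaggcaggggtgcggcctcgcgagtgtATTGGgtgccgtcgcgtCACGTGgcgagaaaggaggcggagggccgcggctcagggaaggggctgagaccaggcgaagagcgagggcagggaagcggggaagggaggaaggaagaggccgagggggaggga

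It held 3 GGGCGG matches, of which the 2 that begin 119 and 114 bases before the start overlap each other by a single base, and 2 CCAAT matches. It also held 1 CACGTG, a motif bound by several basic helix-loop-helix factors, 64 bases before the start; CACGTG occurred in 7.15% of all windows. Neither TGACGTCA (1.79% of windows) nor the palindromic NRF1 consensus (0.971%) was in any window of the set. The windows of Psen2, one with CACGTG and one with 4 GGGCGG matches, have start sites 17488 and 7138 bases inside the deposited gene model and are not printed. The Ncstn window held none of the letters searched.

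Adam10 had 84.8, 90.2, 86.9, 76.9 and 81.8 CPM in CONTROL and 94.98, 98.3, 85.5, 89.04 and 92.6 in CONTROL + ICI. It had 85.2, 85.8, 86.7, 81.7 and 93.6 in MELANOMA and 81.5, 96.7, 78.1, 93.03 and 77.2 in MELANOMA + ICI. MELANOMA + ICI mice spread the most: replicates 2 and 4 were among the highest of the series and replicates 3 and 5 among the lowest. Adam10 was higher by 0.13 (SE 0.072, edgeR adjusted p = 0.766) in CONTROL + ICI than in CONTROL on the log2 scale, and differed by -0.11 (SE 0.072, adjusted p = 0.623) between MELANOMA + ICI and CONTROL + ICI. These comparisons share the CONTROL + ICI mice, and neither passed. They were 0.10 and -0.094 without the 2 libraries apart.

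Bace1, at chr9:45838580-45864399 on the plus strand, had the widest spread of the 8 genes on the log2 scale over all 20 libraries (SD 0.178). Over the 18 libraries without the 2 apart its SD was 0.0996, below those of Psen2 (0.114) and Adam10 (0.101). Its CPM was 96.3, 88.8, 94.00, 63.6 and 86.7 in CONTROL and 109.8, 98.7, 90.9, 93.1 and 103.9 in CONTROL + ICI. It was 93.3, 97.7, 93.7, 88.3 and 102.4 in MELANOMA and 71.6, 95.5, 82.2, 94.3 and 89.8 in MELANOMA + ICI. CONTROL replicate 4 and MELANOMA + ICI replicate 1 were the 2 lowest libraries, below the range of the other 18 (82.2 to 109.8). Bace1 was higher by 0.21 (SE 0.101, edgeR adjusted p = 0.766) in CONTROL + ICI than in CONTROL, a difference that was 0.12 without the 2 libraries apart. In tumour-bearing mice the inhibitor difference had the other sign, -0.13 (SE 0.101, edgeR adjusted p = 0.825). That value was -0.072 without the 2 libraries apart.

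The difference between these 2 inhibitor effects (the interaction: MELANOMA + ICI minus MELANOMA, less CONTROL + ICI minus CONTROL) was -0.34 for Bace1 on the log2 scale (SE 0.143, edgeR adjusted p = 0.484). Its unadjusted p was under 0.05 and stood at place 956 of 18427 genes, but it did not pass the adjusted threshold. Without the 2 libraries apart it was -0.19 (edgeR adjusted p = 0.629), and without CONTROL replicate 4 alone -0.25. Part of Bace1's exons also lie on the opposite strand from Rnf214 (975 shared bases), Gm49338 (951) and Gm16536 (135). Each is counted as a gene of its own, with totals equal in size to 61.01%, 13.8% and 14.2% of the Bace1 total. Whether counting used strand is not given in the sources used here, so reads in the shared bases are of uncertain origin.

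The Bace1 to Adam10 ratio, beta- to alpha-secretase transcript in RPKM, was 0.788 ± 0.0927 in CONTROL (SD, n = 5), 0.834 ± 0.0471 in CONTROL + ICI, 0.850 ± 0.0185 in MELANOMA and 0.789 ± 0.0803 in MELANOMA + ICI. Over the 5 pairs of groups the lowest 2-sided exact permutation p was 0.103, for a log2 difference of -0.11 between MELANOMA + ICI and MELANOMA (adjusted p = 0.254). The 2 libraries apart had the lowest ratio of their groups, 0.640 in CONTROL replicate 4 and 0.679 in MELANOMA + ICI replicate 1. With them left out, the mean ratio was 0.825 ± 0.0486 in CONTROL and 0.816 ± 0.0602 in MELANOMA + ICI (SD, n = 4). The log2 difference between MELANOMA + ICI and MELANOMA was then -0.061 (exact permutation p = 0.214), and that between CONTROL + ICI and CONTROL moved from 0.090 to 0.017. In all 20 libraries the ratio was below 1, from 0.640 to 0.901. This rests on the model lengths, 6348 bases for Bace1 and 4913 for Adam10. By counts not scaled to length, Bace1 had the larger total over the 20 libraries, 43128 against 40922.

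The gamma-secretase subunits completed the processing enzymes. Ncstn, which encodes nicastrin, the subunit that helps receive substrates, averaged 16.5 ± 0.913 RPKM, and Psen2, a catalytic presenilin of the complex, 4.92 ± 0.411 RPKM, the lowest of the set. Ncstn lies at chr1:172066013-172082795 and Psen2 at chr1:180227004-180263438, both on the minus strand.

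Ncstn had 67.7, 71.2, 63.9, 71.1 and 64.5 CPM in CONTROL and 66.6, 63.3, 67.2, 64.8 and 63.9 in CONTROL + ICI. It had 68.5, 58.2, 61.2, 67.7 and 61.5 in MELANOMA and 63.9, 62.4, 66.4, 72.3 and 63.2 in MELANOMA + ICI. No group was set off from another, and neither of the 2 libraries apart was at an extreme. Its SD on the log2 scale was smaller than that of all but 2.26% of genes above 10 CPM, and of all but 8.20% over the 18 libraries without the 2 apart. The largest pairwise difference was -0.094 (SE 0.062, edgeR adjusted p = 0.877), for MELANOMA against CONTROL. Ncstn shares 195 exon bases with Copa on the opposite strand, a gene whose own total was 374% of the Ncstn total, so the same doubt about strand holds there.

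Psen2 had 23.98, 19.3, 22.1, 23.9 and 21.9 CPM in CONTROL and 21.3, 18.7, 19.96, 19.1 and 21.1 in CONTROL + ICI. It had 19.1, 19.8, 20.1, 21.9 and 21.3 in MELANOMA and 23.2, 21.4, 20.1, 24.5 and 23.1 in MELANOMA + ICI. The CONTROL and MELANOMA + ICI means (22.3 ± 1.91 and 22.5 ± 1.70, SD, n = 5) lay above those of CONTROL + ICI and MELANOMA (20.02 ± 1.17 and 20.4 ± 1.13), but single mice overlapped in every comparison. Psen2 rests on 419 to 620 counts per library, for which counting alone gives a coefficient of variation of 4.47% against 8.35% observed over the 20 libraries.

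With the inhibitors, Psen2 differed by -0.15 on the log2 scale (SE 0.075, edgeR adjusted p = 0.766) without tumours and by 0.14 (SE 0.075, adjusted p = 0.825) with them. The interaction was 0.29 (SE 0.107, edgeR adjusted p = 0.483), which had the smallest p of any of the 8 genes in any comparison. It stood at place 519 of 18427 genes by p and did not pass the adjusted threshold. The value was 0.25 (edgeR unadjusted p = 0.029, adjusted p = 0.546) without the 2 libraries apart. With choroid plexus, striatum, dentate gyrus and neocortex scores as covariates it was 0.23 (edgeR unadjusted p = 0.132, adjusted p = 0.533). Between MELANOMA + ICI and CONTROL + ICI, Psen2 differed by 0.17 (SE 0.075, edgeR adjusted p = 0.570). That difference was 0.15 without the 2 libraries apart.

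The levels of Psen2 were set beside those of meningeal markers. The score of the meninges list (the mean log2 CPM of 6 genes such as Col1a2 and Dcn) was 3.86 ± 0.505 in CONTROL, 3.28 ± 0.712 in CONTROL + ICI, 3.48 ± 0.670 in MELANOMA and 4.22 ± 0.592 in MELANOMA + ICI (SD, n = 5). The 4 group means stood in the same order as those of Psen2. Across the 20 libraries Psen2 and this score had r = 0.60 (permutation p = 0.00529, adjusted p = 0.055 over the relations of 8 genes with 13 scores) and rho = 0.58 (permutation p = 0.00764, adjusted p = 0.080), and r = 0.75 without the 2 libraries apart. After subtracting group means r was 0.42. Neither adjusted p passed 0.05. Without the 2 libraries farthest from the median of Psen2, r was 0.44. The summed level of the list ran from 93.04 to 279 CPM in CONTROL, 55.1 to 218 in CONTROL + ICI, 69.8 to 225 in MELANOMA and 122 to 408 in MELANOMA + ICI, with none of its 6 genes at 0. The neocortex score had its 4 group means in the order of those of Psen2 as well. It averaged 5.41 ± 0.502 in CONTROL, 5.24 ± 0.306 in CONTROL + ICI, 5.35 ± 0.212 in MELANOMA and 5.57 ± 0.515 in MELANOMA + ICI. Its r with Psen2 was 0.34 (permutation p = 0.137, adjusted p = 0.36). The choroid plexus, endothelium and microglia scores were also highest in CONTROL and MELANOMA + ICI. The part of meningeal RNA in the Psen2 differences was not tested.

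Mapt, at chr11:104231390-104332090 on the plus strand, averaged 81.0 ± 9.39 RPKM. Its CPM was 611, 543, 564, 849 and 589 in CONTROL and 589, 584, 600.3, 566 and 579 in CONTROL + ICI. It was 598, 634, 578, 604 and 596 in MELANOMA and 749, 568, 632, 556 and 613 in MELANOMA + ICI. CONTROL replicate 4 and MELANOMA + ICI replicate 1 were far above the other 18 libraries, which lay between 543 and 634. With those 2 left out, the SD of Mapt on the log2 scale was smaller than that of all but 1.39% of genes above 10 CPM, against 31.9% with them. The group differences were small: -0.11 (SE 0.106, edgeR adjusted p = 0.785) for CONTROL + ICI and -0.069 (SE 0.106, adjusted p = 0.903) for MELANOMA, each against CONTROL. Both turned in sign without CONTROL replicate 4, to 0.017 and 0.061.

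Per kilobase, the order of the 8 transcripts was App, Aplp1, Aplp2, Mapt, Adam10, Ncstn, Bace1 and Psen2. Neighbours in that order kept it in 19 (App over Aplp1), 20 (Aplp1 over Aplp2), 19 (Aplp2 over Mapt), 20 (Mapt over Adam10), 16 (Adam10 over Ncstn), 16 (Ncstn over Bace1) and 20 (Bace1 over Psen2) of the 20 libraries. Ncstn was thus not separated from Adam10 or from Bace1 in every mouse, whereas Adam10 lay above Bace1 in all 20. CONTROL replicate 4 was the library in which Aplp1 exceeded App and Mapt exceeded Aplp2. RPKM here uses the summed exons of each gene model and does not weigh which transcripts are in use.

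**Figure D2:**
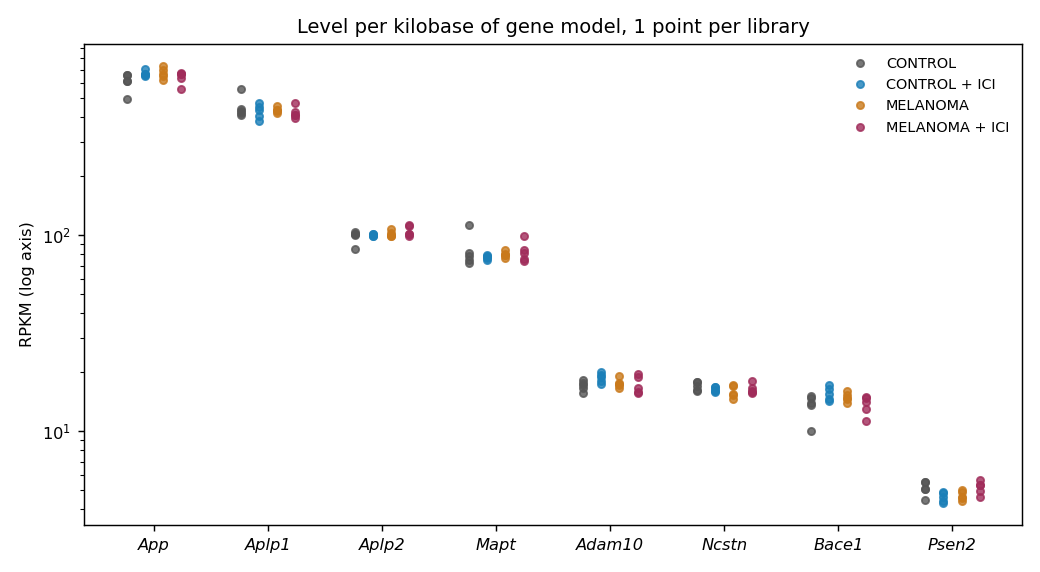
RPKM (log axis) of each gene in each library, 1 point per mouse, coloured by group and ordered by mean. Levels run from a mean of 646 RPKM for App to 4.92 for Psen2, and Adam10, Ncstn and Bace1 overlap.

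Across the study's 6 comparisons none of the 8 genes passed an adjusted p of 0.05 in edgeR's quasi-likelihood test, nor in DESeq2 or limma voom. The background in edgeR was also empty: 0% of the 18427 tested genes passed in any of the 6 comparisons. Over all genes DESeq2 called between 0 and 47 per comparison and limma voom between 0 and 25. At an unadjusted p under 0.05, edgeR called 0 of the 8 in CONTROL + ICI against CONTROL (5.23% of all genes), 0 in MELANOMA against CONTROL (5.11%) and 0 in MELANOMA + ICI against CONTROL (2.38%). It called 0 in MELANOMA + ICI against MELANOMA (5.50%), 1 in MELANOMA + ICI against CONTROL + ICI (Psen2; 8.63%) and 2 in the interaction (Psen2 and Bace1; 10.3%). Set against those shares, 1 or 2 of 8 is not a result about the set. In the same order of comparisons, DESeq2 called 1 (Psen2; 5.69% of all genes at an unadjusted p under 0.05 in DESeq2), 0 (5.43%), 0 (2.66%), 0 (6.10%), 1 (Psen2; 9.58%) and 2 (Psen2 and Bace1; 11.1%). In limma voom the counts were 0 (7.27%), 0 (6.97%), 0 (5.37%), 1 (Psen2; 14.9%), 1 (Psen2; 11.7%) and 2 (Psen2 and Bace1; 12.7%). In edgeR without the 2 libraries apart they were 0 (4.98%), 0 (5.10%), 0 (3.72%), 0 (7.09%), 0 (10.3%) and 1 (Psen2; 8.18%). With the 4 tissue scores as covariates, App had an unadjusted p under 0.05 in MELANOMA against CONTROL (0.20) and in the interaction (-0.29). Bace1 had one in MELANOMA + ICI against CONTROL + ICI (-0.28) and in the interaction (-0.395), and Psen2 had none. The share of all genes in that fit is not given here, and none of these passed after adjustment. Over all alternatives run the highest count was 3 (Psen2, Bace1 and Adam10), in MELANOMA + ICI against CONTROL + ICI in edgeR without MELANOMA + ICI replicate 2, where 10.3% of all genes had such a p. None of those 3 passed after adjustment in that fit.

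None of the 8 genes had groups that did not overlap in any of the 5 pairwise comparisons. Over all tested genes the share without overlap was 0.885% for CONTROL + ICI against CONTROL, 1.04% for MELANOMA against CONTROL and 0.304% for MELANOMA + ICI against CONTROL. It was 1.54% for MELANOMA + ICI against MELANOMA and 1.45% for MELANOMA + ICI against CONTROL + ICI. The 95% intervals of the 8 fold changes bound how large a difference could have gone unseen. Their widest bound was 0.42 on the log2 scale for CONTROL + ICI against CONTROL, 0.36 for MELANOMA against CONTROL, 0.29 for MELANOMA + ICI against CONTROL, 0.34 for MELANOMA + ICI against MELANOMA, 0.41 for MELANOMA + ICI against CONTROL + ICI and 0.64 for the interaction. Differences inside these bounds are not shown to be absent. The median fold change of the 8 genes lay between -0.011 and 0.026 over the 6 comparisons, beside -0.0098 to 0.025 for all tested genes.

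**Figure D3:**
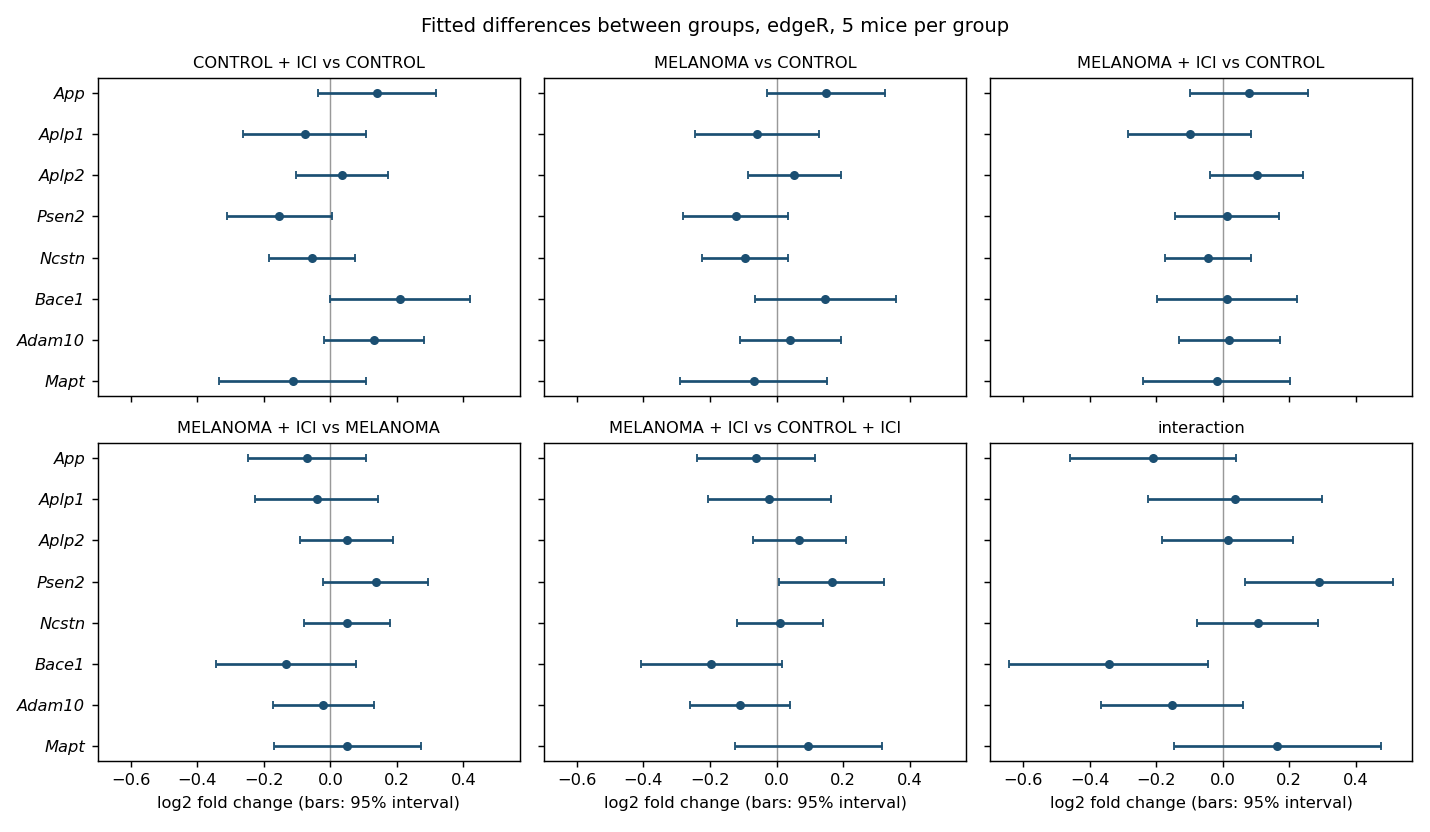
Log2 fold changes of the 8 genes with 95% intervals in edgeR (horizontal axis), 1 panel per comparison, 5 mice per group; interaction is the inhibitor difference with tumours minus that without. The interaction intervals of Psen2 (0.29) and Bace1 (-0.34) and the interval of Psen2 in MELANOMA + ICI against CONTROL + ICI (0.17) lie off 0; no adjusted p was under 0.05.

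Across the 20 mice, Bace1 and Adam10 moved together. Their log2 CPM had r = 0.72 (permutation p = 5e-05, adjusted p = 0.0014 over 28 pairs) and rho = 0.79 (permutation p = 3e-05, adjusted p = 0.00084). After subtracting group means r was 0.65, and without CONTROL replicate 4 and MELANOMA + ICI replicate 1, which are also the libraries farthest from the median of Bace1, it was 0.73. Adam10 and Mapt moved oppositely, with r = -0.61 (permutation p = 0.00187, adjusted p = 0.00864) and rho = -0.74 (permutation p = 0.00043, adjusted p = 0.00602). For that pair r was -0.57 after group means, -0.58 without the 2 libraries apart and -0.54 without the 2 farthest from the median of Adam10. These were the 2 of 28 pairs that passed by both r and rho.

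The other 6 pairs that passed by r alone all weakened without the 2 libraries apart, Aplp1 with Aplp2 the least. App and Bace1 had r = 0.79 with all 20 libraries and 0.26 without those 2. App and Mapt had -0.77 and 0.048, Bace1 and Mapt -0.81 and -0.13, and Aplp1 and Mapt 0.74 and 0.10. Aplp1 and Aplp2 had -0.75 and -0.42, and Aplp1 and Bace1 -0.71 and -0.18. Over all libraries their permutation p for r lay between 0.00052 and 0.00261 (adjusted 0.00728 to 0.00913), while rho lay between -0.56 and 0.43 with adjusted p of 0.101 or more. In all, 11 of 28 pairs had an r beyond 0.5 in size with all libraries and 2 without the 2 apart. How often pairs of other tested genes reach such values was not computed, so these counts are not a result about the set. All values within a library share its depth and scaling factor.

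**Figure D4:**
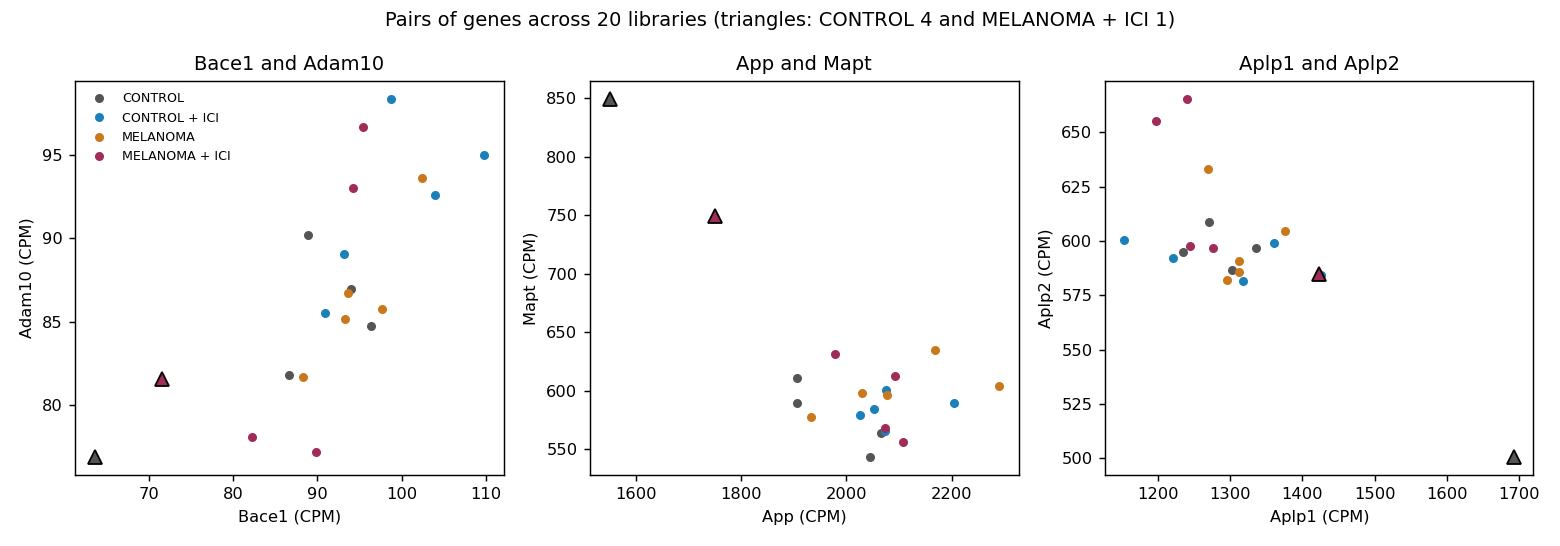
CPM of Adam10 against Bace1, Mapt against App and Aplp2 against Aplp1, 1 point per mouse, coloured by group; triangles are CONTROL replicate 4 and MELANOMA + ICI replicate 1. Bace1 and Adam10 rise together with or without the triangles (r = 0.72 and 0.73), whereas the slope of Mapt against App comes from the triangles (r = -0.77 and 0.048).

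Among the relations of the 8 genes with the 13 marker scores, 9 passed by r and 5 of them by rho as well. The share of all tested genes with such relations to these scores was not computed. By rho alone, Aplp1 also passed with the CA3 score (rho = 0.69, permutation p = 0.00106, adjusted p = 0.0367; r = 0.51, permutation p = 0.0249, adjusted p = 0.136) and with the meninges score (rho = -0.65, permutation p = 0.00251, adjusted p = 0.0397; r = -0.47, permutation p = 0.0351, adjusted p = 0.159). Their r were 0.68 and -0.57 without the 2 libraries apart, and 0.56 and -0.56 without the 2 farthest from the median of Aplp1. By r alone, Bace1 passed with astrocytes (r = 0.66, permutation p = 0.00146, adjusted p = 0.0304), Aplp2 with astrocytes (0.61, permutation p = 0.00409, adjusted p = 0.0473), Aplp1 with microglia (0.76, permutation p = 0.00095, adjusted p = 0.0289) and Adam10 with microglia (-0.61, permutation p = 0.00267, adjusted p = 0.0347). Their rho were 0.56, 0.56, 0.51 and -0.57, with adjusted p from 0.0848 to 0.146. Leaving out the 2 libraries apart took their r to 0.24, 0.32, 0.46 and -0.50, and leaving out the 2 farthest from the median of the gene to 0.24, 0.28, 0.42 and -0.39. Of those that passed by both, Aplp1 went down with the astrocyte score (r = -0.85, permutation p = 2e-05, adjusted p = 0.00208; rho = -0.80, permutation p = 5e-05, adjusted p = 0.0052). It went up with the neuron score (r = 0.65, permutation p = 0.00111, adjusted p = 0.0289; rho = 0.65, permutation p = 0.00267, adjusted p = 0.0397). Mapt, an axonal protein of neurons, also went up with the neuron score (r = 0.62, permutation p = 0.00194, adjusted p = 0.0336; rho = 0.77, permutation p = 0.00015, adjusted p = 0.0078). With the neocortex score Mapt had r = 0.61 (permutation p = 0.00242, adjusted p = 0.0347) and rho = 0.65 (permutation p = 0.00248, adjusted p = 0.0397). Bace1 went down with the microglia score (r = -0.76, permutation p = 0.00050, adjusted p = 0.026; rho = -0.66, permutation p = 0.00198, adjusted p = 0.0397). For the 5 relations that passed by both, r without the 2 libraries apart was -0.74, 0.60, 0.62, 0.66 and -0.58. Without the 2 libraries farthest from the median of the gene they were -0.76, 0.67, 0.62, 0.66 and -0.58.

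The group means of the neuron and astrocyte scores differed by less than the SD within any group, and that of the endothelium score by more. The endothelium score averaged 5.04 ± 0.138 in CONTROL, 4.74 ± 0.123 in CONTROL + ICI, 4.96 ± 0.0977 in MELANOMA and 5.02 ± 0.187 in MELANOMA + ICI (SD, n = 5). The neuron score averaged 9.47 ± 0.0956 in CONTROL, 9.49 ± 0.0969 in CONTROL + ICI, 9.47 ± 0.134 in MELANOMA and 9.46 ± 0.151 in MELANOMA + ICI (SD, n = 5). The microglia score was 5.32 ± 0.139, 5.19 ± 0.0957, 5.21 ± 0.0350 and 5.22 ± 0.0614 in the same order, with its highest value, 5.54, in CONTROL replicate 4, which also had the lowest Bace1. CONTROL replicate 4 and MELANOMA + ICI replicate 1 had the 2 lowest astrocyte scores (8.10 and 8.17) and high neuron scores (9.62 and 9.61). Scores of regions differed more between groups. The dentate gyrus score averaged 5.05 ± 1.22 in CONTROL, 5.34 ± 1.03 in CONTROL + ICI, 4.48 ± 1.07 in MELANOMA and 3.78 ± 0.955 in MELANOMA + ICI, and the striatum score 3.20 ± 0.286, 3.28 ± 0.249, 4.93 ± 1.73 and 3.91 ± 1.10 in the same order (SD, n = 5). The CA1 score was 6.93 ± 0.189 in CONTROL, 7.07 ± 0.0925 in CONTROL + ICI, 6.91 ± 0.251 in MELANOMA and 6.44 ± 0.523 in MELANOMA + ICI. Aplp2 had r = -0.56 with the CA1 score (permutation p = 0.0337, adjusted p = 0.159; rho = -0.39, permutation p = 0.0942, adjusted p = 0.326), and -0.83 without the 2 libraries apart. The part of tissue makeup in the levels of the 8 genes was not tested beyond the fit with 4 scores as covariates.

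**Figure D5:**
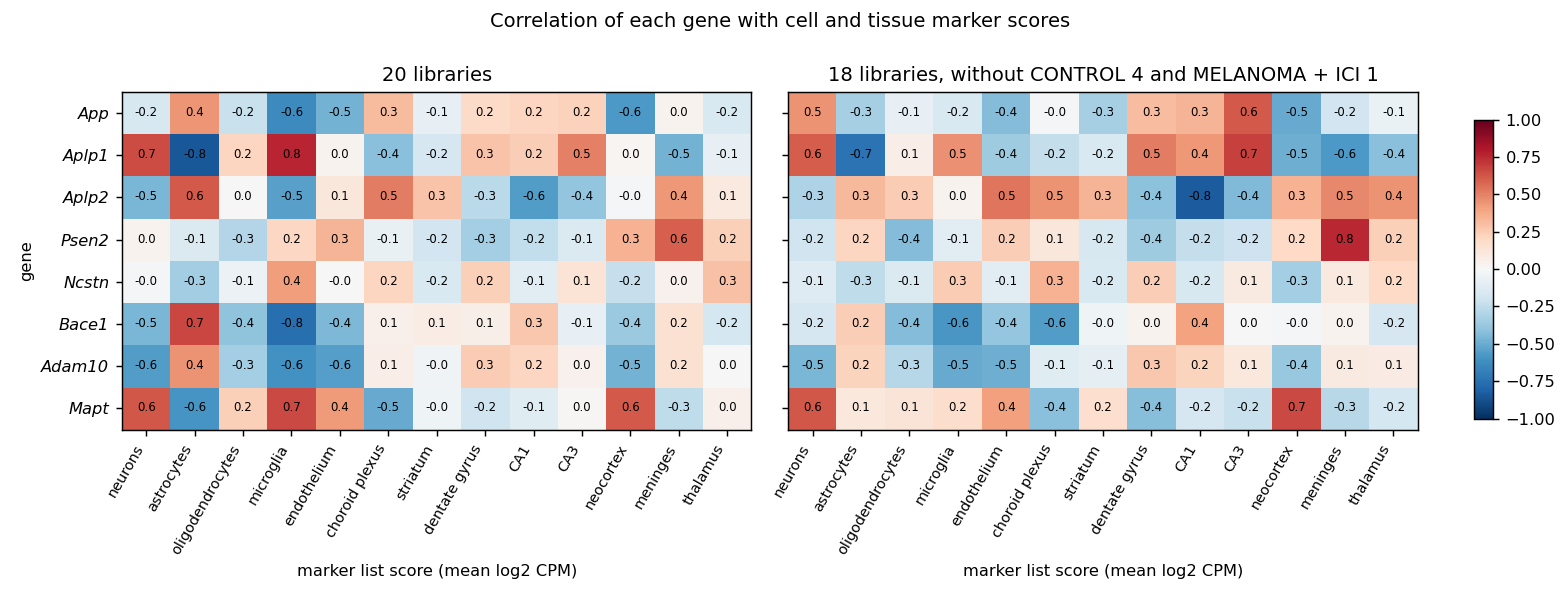
Pearson r of each gene's log2 CPM with each of 13 marker scores over 20 libraries (left) and over 18 libraries (right, without CONTROL replicate 4 and MELANOMA + ICI replicate 1); colour runs from -1 (blue) to 1 (red). The relations of Aplp1 with astrocytes (-0.85 and -0.74) and of Mapt with neurons (0.62 and 0.62) appear in both panels, while those of Mapt with astrocytes (-0.59 and 0.11) do not.

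The transcripts most like each gene across the 20 libraries, by Pearson r of log2 CPM among 15471 to 15474 genes of at least 1 CPM, were the following. For App they were Traf3 (r = 0.94), Gm26811 (0.94) and Dyrk2 (0.92), for Aplp1 Ssbp4 (0.96), Drap1 (0.95) and Ptms (0.93), and for Aplp2 Kif16b (0.86), Soat1 (0.85) and Kirrel (0.85). For Bace1 they were Inpp5b (0.95), Tcf20 (0.95) and Tenm3 (0.94), for Adam10 Ascc3 (0.86), Cpd (0.85) and Edem3 (0.85), and for Mapt Hdgf (0.97), Psmc5 (0.97) and Fis1 (0.97). For Psen2 they were Ergic3 (0.88), Rab13 (0.85) and Tubb4b (0.83), and for Ncstn Nsun3 (0.72), mt-Te (0.68) and Alg3 (0.67). Over the 18 libraries without the 2 apart, Traf3 with App, Ssbp4 with Aplp1, Inpp5b and Tenm3 with Bace1, Ergic3 with Psen2 and Nsun3 with Ncstn were again among the 3 closest, with r of 0.85, 0.91, 0.84, 0.86, 0.85 and 0.75. For Aplp2, Adam10 and Mapt the 3 closest were all others. Each was picked as the closest of all those genes, so these are descriptions without a test.

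The wider pathway was read through 7 lists holding 99 genes, of which all but Apbb3 could be tested. No gene of the lists passed an adjusted p of 0.05 in any comparison in edgeR. List members at an unadjusted p under 0.05 are given below beside the share of all tested genes with such a p in the same direction. Counts are over all 20 libraries unless stated. Among 12 genes of amyloid clearance, 3 were higher in MELANOMA + ICI against CONTROL (1.10% of all genes), with a median difference of 0.11 against 0.0026 for all genes. Without the 2 libraries apart 2 were higher (3.72% of all genes in either direction), with a median of 0.12 against 0.012. No gene of the 7 lists was lower at such a p in that comparison (1.28% of all genes). In CONTROL + ICI against CONTROL 2 of the 12 were lower (3.15%), and in MELANOMA against CONTROL 1 was higher (2.70%) and 1 lower (2.41%). MELANOMA + ICI had 2 higher against MELANOMA (2.63%) and 2 higher against CONTROL + ICI (4.12%), and the interaction had 1 higher (5.99%). Ctsd, the lysosomal protease cathepsin D, had 218 ± 35.7 CPM in CONTROL, 168 ± 12.1 in CONTROL + ICI, 166 ± 21.9 in MELANOMA and 210.2 ± 28.2 in MELANOMA + ICI (SD, n = 5). Its interaction was 0.71 (SE 0.165, edgeR adjusted p = 0.253). The shape over the 4 groups resembled that of Psen2, high in CONTROL and MELANOMA + ICI. Ide, insulin-degrading enzyme, which also cleaves amyloid-beta, had 40.1 ± 2.82 CPM in CONTROL and 50.4 ± 11.2 in MELANOMA + ICI, a difference of 0.33 (SE 0.110, edgeR adjusted p = 1.00).

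Other substrates of the secretases were sampled by 12 genes. In CONTROL + ICI against CONTROL all 12 had a positive difference, as did 48.0% of all genes tested, with a median of 0.22 against -0.0098 for all genes, but 1 had an unadjusted p under 0.05 (2.08% of all genes higher). In the interaction 11 of the 12 were negative, as were 47.2% of all genes, with a median of -0.22 against 0.025 for all genes, and 2 had an unadjusted p under 0.05 (4.28% of all genes lower); both comparisons use the same CONTROL and CONTROL + ICI mice. Over the 18 libraries without the 2 apart, 11 of 12 were positive in the former (53.2% of all genes; median 0.17) and 10 of 12 negative in the latter (52.9%; median -0.11). Of the 12, 1 was higher in MELANOMA against CONTROL (2.70%), 1 lower in MELANOMA + ICI against MELANOMA (2.87%) and 1 lower against CONTROL + ICI (4.51%). Sez6, a neuronal membrane protein shed by Bace1, had 206 ± 44.02 CPM in CONTROL, 259 ± 37.5 in CONTROL + ICI, 280.0 ± 39.6 in MELANOMA and 221 ± 47.3 in MELANOMA + ICI. Its interaction was -0.67 (SE 0.225, edgeR adjusted p = 0.476), with the same sign as that of Bace1. For its relatives, the interaction of Sez6l2 was -0.21 (edgeR adjusted p = 0.484), and Sez6l differed by -0.40 between MELANOMA + ICI and CONTROL + ICI (edgeR adjusted p = 0.570).

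Among 11 gamma-secretase partners and other secretases, 1 was lower at an unadjusted p under 0.05 in CONTROL + ICI against CONTROL (3.15% of all genes) and none was higher or lower in the other 5 comparisons. That gene was Psenen, a subunit of gamma-secretase, with 22.2 ± 6.39 CPM in CONTROL and 17.6 ± 1.18 in CONTROL + ICI (difference -0.34, edgeR adjusted p = 0.766; -0.14 without the 2 libraries apart). Tmed10 and Rer1, which regulate the complex in the early secretory pathway, came next in the list, with no unadjusted p under 0.05 over all 20 libraries. Without the 2 libraries apart, 1 of the 11 was lower in CONTROL + ICI against CONTROL (4.98% of all genes, either direction) and 2 in MELANOMA against CONTROL (5.10%). In that fit 1 was higher in MELANOMA + ICI against MELANOMA (7.09%), 1 against CONTROL + ICI (10.3%) and 2 in the interaction (8.18%). Of 23 tested APP adaptors and sorting genes, 3 were higher at an unadjusted p under 0.05 in MELANOMA against CONTROL (2.70% of all genes) and 2 lower in MELANOMA + ICI against CONTROL + ICI (4.51%). In the same list 1 was higher in MELANOMA + ICI against CONTROL (1.10%) and 2 lower in the interaction (4.28%). Apba3, an adaptor of the amyloid precursor protein, differed by 0.21 in MELANOMA against CONTROL (edgeR adjusted p = 0.868). Sorl1, a sorting receptor of the precursor, had 450.2 ± 61.1 CPM in CONTROL + ICI and 331 ± 34.5 in MELANOMA + ICI (difference -0.44, edgeR adjusted p = 0.563). Gga3, which sorts Bace1 to lysosomes, had an interaction of -0.29 (edgeR adjusted p = 0.484; -0.16 without the 2 libraries apart).

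On the side of tau, 2 of 21 kinases and phosphatases were higher at an unadjusted p under 0.05 in CONTROL + ICI against CONTROL (2.08% of all genes), 2 lower in MELANOMA + ICI against CONTROL + ICI (4.51%) and 1 lower in the interaction (4.28%). Gsk3b, a major tau kinase, had 170.1 ± 9.05 CPM in CONTROL and 191 ± 13.8 in CONTROL + ICI (difference 0.17, edgeR adjusted p = 0.766). Dyrk1a, another, had 80.3 ± 9.77 and 91.7 ± 3.78 (difference 0.19, edgeR adjusted p = 0.766; 0.12 without the 2 libraries apart). Camk2a, abundant in pyramidal neurons, had 4665 ± 1092 CPM in CONTROL + ICI and 3344 ± 481 in MELANOMA + ICI (difference -0.48, edgeR adjusted p = 0.563), the pair of groups in which the CA1 and dentate gyrus scores were highest and lowest; the part of regional makeup was not tested. Among 17 microtubule proteins, 2 were lower at an unadjusted p under 0.05 in that comparison (4.51% of all genes) and 1 in MELANOMA + ICI against MELANOMA (2.87%). Of these, Map1b and Map4 differed by -0.31 and -0.27 in that same comparison (edgeR adjusted p = 0.570 and adjusted p = 0.572) and Map7 by -0.34 between MELANOMA + ICI and MELANOMA (edgeR adjusted p = 0.825). Without the 2 libraries apart, the microtubule proteins lower at such a p were 0 against CONTROL + ICI (10.3% of all genes, either direction) and 1 against MELANOMA (7.09%). Of the synuclein family, Sncb, a presynaptic protein, had 409.6 ± 107 CPM in CONTROL and 425 ± 71.9 in MELANOMA + ICI, and Sncg had group means of 2.30 to 2.72 CPM; neither had an unadjusted p under 0.05 in any of the 6 comparisons in edgeR.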

How the data were processed

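RNA was sequenced from 20 hippocampi, 5 per group, each library being 1 mouse. The authors deposited whole-number read counts per gene, 1 table per library, with gene coordinates and lengths per the file headers. STAR 2.5.2b and DESeq2 1.16.1 are named in the submitters' processing notes. The counting program, use of strand, genome build and annotation are not given in the sources used here. No row lacked a gene.

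Counts as deposited were tested with edgeR 4.0.16 (R 4.3.3): TMM scaling, genes kept by its filter (minimum count 10, minimum total 15), quasi-likelihood tests over all 4 groups (residual df 16), and Benjamini-Hochberg adjustment over all 18427 genes tested, with a threshold of 0.05. Log2 CPM used a prior count of 2. Correlations used 100000 permutations (scipy 1.17.1), for which the smallest possible p is 1e-05, and ratios exact permutation. Alternatives were DESeq2 1.42.0, limma 3.58.1 voom with sample quality weights (more variable libraries count less), other scaling and no filter. Further ones were only the 2 groups compared, a replicate block, 4 tissue scores as covariates, and left-out libraries. The scripts were tested on simulated data.

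Depth ran from 21990624 to 25735149 counts per library, and no interval here covers more than the spread between these mice. In 40 pairs of libraries within groups, none agreed within sampling noise (chi-square per gene 11 to 128). The 8 genes and the lists were chosen with earlier results of these data known. The text names all 8 genes, the 3 transcripts most like each, and at most 3 genes per pathway list, by smallest unadjusted p over the 6 comparisons. Of the 49671 gene IDs in the deposited tables, 49326 matched a gene symbol. A gene that the naming rule picked from the lists is not reported here.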

Additional observations from a re-analysis of the deposited data

Results flagged for a closer look

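Of 40 sets of 5 values checked for a library far from the rest of its group (8 genes and 2 ratios in 4 groups), 5 had one; chance gives about 1 in 20. CONTROL replicate 4 accounted for 3 of them: it had the highest Aplp1 of its group (1693 CPM, the next 1337), the lowest Aplp2 (500.6 CPM, the next 586.5) and the highest Mapt (849 CPM, the next 611). It is one of the 2 libraries that stood apart over all genes. The highest App of CONTROL + ICI, in replicate 1, was 2204 CPM beside 2076 for the next. The highest Bace1 to Adam10 ratio of MELANOMA, a group in which the other 4 mice lay close together, was 0.881 beside 0.848.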

How the results depend on the processing

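No member passed an adjusted p of 0.05 under any of the alternatives run, the lowest being 0.206 (Psen2, interaction, limma voom). Of 1336 alternative values of the 48 log2 fold changes, 55 changed sign, in 19 results whose reported size was at most 0.16; the cause was not tested.

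With 4 tissue scores as covariates, values that changed sign were, for Adam10, 0.023 (MELANOMA + ICI against MELANOMA) and -0.011 (MELANOMA against CONTROL); for Aplp1, 0.0019, 0.11 and 0.062 (MELANOMA + ICI against CONTROL, CONTROL + ICI and MELANOMA); for Aplp2, -0.049 (interaction); and against CONTROL in MELANOMA + ICI, -0.073 for Bace1, 0.059 for Mapt and -0.00056 for Psen2. In limma voom they were, for Aplp1, 0.0097 (MELANOMA against CONTROL) and -0.044 (interaction), -0.0013 for Bace1 (MELANOMA + ICI against CONTROL) and, for Mapt, 0.0060, 0.059 and 0.034 (CONTROL + ICI, MELANOMA and MELANOMA + ICI against CONTROL), -0.025 (MELANOMA + ICI against MELANOMA) and -0.031 (interaction). Without the 2 libraries apart they were, for Aplp1, 0.010, 0.030 and -0.094 (CONTROL + ICI and MELANOMA against CONTROL, interaction), -0.013 for Aplp2 (CONTROL + ICI against CONTROL), -0.016 for Bace1 and -0.016 for its ratio to Adam10 (MELANOMA + ICI against CONTROL), 0.017, 0.061, 0.038, -0.024 and -0.041 for Mapt (in the order given for voom), and 0.048 for the correlation of App with Mapt.

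Leaving out each mouse in turn gave these ranges. For MELANOMA + ICI against CONTROL they were -0.029 to 0.055 (Adam10), -0.078 to 0.074 (Bace1), -0.093 to 0.11 (Mapt), -0.034 to 0.050 (Psen2), -0.052 to 0.0075 (App to Aplp2) and -0.069 to 0.057 (Bace1 to Adam10). For CONTROL + ICI against CONTROL they were -0.11 to 0.010 (Aplp1), -0.013 to 0.054 (Aplp2) and -0.16 to 0.017 (Mapt), and for MELANOMA against CONTROL -0.093 to 0.030 (Aplp1) and -0.12 to 0.061 (Mapt); in these 5 the sign turned without CONTROL replicate 4 alone. For MELANOMA + ICI against MELANOMA they were -0.070 to 0.020 (Adam10) and -0.024 to 0.090 (Mapt, without MELANOMA + ICI replicate 1), against CONTROL + ICI -0.064 to 0.015 (Aplp1, without CONTROL + ICI replicate 3) and -0.027 to 0.030 (Ncstn, without MELANOMA + ICI replicate 4), and in the interaction -0.052 to 0.073 (Aplp1) and -0.012 to 0.062 (Aplp2).

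Over all genes, where edgeR called 0, DESeq2 called 1 (CONTROL + ICI against CONTROL), 8 (MELANOMA against CONTROL), 9 (MELANOMA + ICI against CONTROL + ICI) and 47 (interaction), and voom 1 (MELANOMA against CONTROL), 25 (MELANOMA + ICI against MELANOMA) and 19 (interaction). Fitting only the 2 groups gave 1 (MELANOMA against CONTROL), and leaving out the 2 libraries 1 (interaction). Leaving out single mice gave 0 to 3 (MELANOMA against CONTROL), 0 to 11 (MELANOMA + ICI against MELANOMA) and 0 to 11 (interaction), each highest without MELANOMA + ICI replicate 3. Of 64 alternative group means in CPM, 1 moved by more than the SD.

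Replicate numbers gave no clear sign of pairing the mice. A correlation of deviations over 0.1 was seen in 10 of 30 same-numbered and 39 of 120 other-numbered pairs (means 0.032 and -0.0068). Of the 20 libraries, 6 correlated best with their own number. With a replicate block no call over all genes or the 8 changed; the interaction was 0.28 for Psen2 (edgeR adjusted p = 0.500) and -0.34 for Bace1 (edgeR adjusted p = 0.523).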
